A study of Mustela putorius furo and Mus musculus with 4 samples.

Results

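Glutathione and antioxidant defence genes were compared between cultured ferret and cultured mouse astrocytes. The set was a given list of 39 gene symbols, grouped by the role of their products, and the rule uses no measured level. Of these, 34 had a value in both species, among 13373 gene symbols shared by the ferret and mouse files without regard to case. All 34 reached a mean level of 1 in at least 1 species and were tested, among 10204 tested genes. Sod3 and Mgst2 reached that level in the mouse only. The symbols Nfe2l2, Gpx4, Prdx1, Sod2 and Gstk1 had no ferret value under that symbol and were left out of the comparison.

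Astrocytes were grown from the cerebral cortex of ferrets on postnatal day 1 and of ICR mice on postnatal day 1 to 3, with 2 libraries per species. The labels name no transgene and no treatment for either species. Mixed glia were kept for 14 days in 10% fetal bovine serum, shaken to remove loosely attached cells and replated, and serum was then withdrawn before RNA was taken. The serum-free medium of both species contained N-acetyl cysteine, a precursor of cysteine, and sodium selenite, a source of selenium, so both cultures received supplements that feed these pathways. A mouse flask pooled several pups, whereas the cells of a single ferret pup filled several flasks. Whether the duplicate libraries came from separate cultures was not stated, so the spread between them may be technical.

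Glutathione is a small cysteine-containing peptide that is kept in its reduced form with NADPH. Glutathione peroxidases use it to reduce peroxides, glutathione transferases couple it to reactive compounds, and glutaredoxins use it to repair oxidized protein thiols. The thioredoxin system runs in parallel, with thioredoxin reductases, thioredoxins and peroxiredoxins passing electrons from NADPH to peroxides. Many of these genes are switched on by the transcription factor NRF2, encoded by Nfe2l2, which KEAP1 marks for degradation when oxidants are low. In the brain, astrocytes are the cells best known for NRF2 activity and for exporting glutathione, from which neurons obtain the cysteine for their own synthesis.

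Glutathione peroxidases and thioredoxin reductases differ in the residue that reacts with the peroxide or disulphide. In some it is selenocysteine, encoded by a TGA codon that would otherwise end the protein, and in others it is cysteine. The stretches below are the mouse coding sequences around that codon, from GENCODE transcripts on GRCm38, and are shown because the peroxidases that differed between the species fall on both sides of this divide. Capitals mark the annotated selenocysteine codon, or in Gpx7 and Gpx8 the codon aligned with that of Gpx1.
Gpx1: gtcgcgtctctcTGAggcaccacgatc
Gpx3: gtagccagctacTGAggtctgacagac
Gpx4: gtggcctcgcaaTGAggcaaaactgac
Gpx7: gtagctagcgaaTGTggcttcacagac
Gpx8: gtggctagtgacTGCcgcttcacagac
Txnrd1: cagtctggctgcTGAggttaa
Txnrd2: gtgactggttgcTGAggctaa

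Each stretch lies within 1 coding exon, at chr9:108339439-108339465 for Gpx1 and chr11:54907244-54907270 for Gpx3, both on the plus strand. On the minus strand are those of Gpx7 at chr4:108403418-108403444 and Gpx8 at chr13:113045649-113045675. The Gpx4 stretch is at chr10:80054725-80054751, that of Txnrd1 at chr10:82896025-82896045 and that of Txnrd2 at chr16:18477760-18477780, all on the plus strand. In Gpx7 the aligned codon is TGT and in Gpx8 it is TGC, which both encode cysteine. In both reductases the selenocysteine codon comes just before the final glycine codon and the stop codon. Over the 27 bases, Gpx3 and Gpx7 each shared 13 bases with Gpx1, Gpx8 shared 14 and Gpx4 shared 17.

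Levels are given as deposited for each library, in FPKM, a level per length in which fragments are divided by exon length and by the fragments mapped in that library. The paper also reports read counts and gene lengths, but only the deposited FPKM were used here, so depth set no intervals or limits. Species were compared with limma on log2(FPKM + 1), and differences are ferret minus mouse on that scale, which understates the change of low genes. A gene was called at an adjusted p under 0.05, by the Benjamini-Hochberg method over all 10204 genes, together with an absolute log2 difference above 1. The 2 libraries of a species lay close together, with a median absolute log2 difference over the 34 genes of 0.0923 in the ferret and 0.0567 in the mouse. Summed over shared symbols, the ferret libraries held 227391 and 236543 FPKM and the mouse libraries 300465 and 308121 FPKM, and the median difference of all tested genes was -0.35. With the libraries rescaled to equal sums this median was -0.01, so each difference is given as deposited and, where it matters, under 3 other scalings (equal sums of 1000000, equal sums at the mean of the 4 libraries, and quantile normalization). Because the authors used a separate annotation for each genome, a difference between the species and a difference between the gene models cannot be told apart.

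The label of the cells was checked against marker genes. Gfap, the filament protein of astrocytes, stood at 1481 and 1522 FPKM in the ferret and at 1429 and 1546 in the mouse. Of 11 astrocyte markers, 1 was called higher and 7 lower in the ferret, and Slc1a2, a glutamate transporter of mature astrocytes, was at 0.1325 and 0.1776 FPKM in the ferret against 47.09 and 51.79 in the mouse. Markers of other cells moved with the species. Of 15 microglial markers in both species, 14 were called lower in the ferret, and their summed FPKM was 73.04 and 73.53 in the ferret against 944.4 and 918 in the mouse. Of 11 markers of meningeal fibroblasts, 10 were called lower, with sums of 129.2 and 114.6 against 1730 and 1720 FPKM. Cx3cr1 of the microglial list and Mgp of the fibroblast list were listed at 0 in both ferret libraries. The microglial list holds Tyrobp, C1qb, Ctss, Mpeg1 and Laptm5, and the fibroblast list Serpinf1, Pcolce and Mgp. The paper had already ranked these genes as mouse-specific from the same libraries, so their lower values were known beforehand and are no independent check. Serpinf1 alone gave 629.8 and 653.2 FPKM of the mouse fibroblast sums. Oligodendrocyte-lineage markers summed to 167 and 185.6 FPKM in the ferret and to 68.53 and 68.94 in the mouse, with 3 of 8 tested called higher. Cnp was the largest part of these sums in every library. Sox10 of this list was at 26.34 and 30.95 FPKM in the ferret and at 0.2306 and 0.304 in the mouse. Mbp was at 28.51 and 33.13 against 2.948 and 1.778 FPKM. Olig2, Cspg4 and Myrf had lower values in the ferret, but no marker of this list was called lower. Myrf was nearly equal, at 1.135 and 1.016 against 1.18 and 1.191 FPKM. In the endothelial and mural list, 3 of 3 tested markers were called lower, with sums of 5.135 and 4.83 against 50.26 and 48.9 FPKM. Neuronal markers summed to 30.76 and 31.62 against 32.05 and 33.25 FPKM, although 3 of 4 tested were called higher. Map2 was the largest part of these sums, at 18.78 and 19.03 against 30.36 and 31.29 FPKM, and was not called. The 3 higher markers were Syt1, Dcx and Nefl, with Nefl at 4.417 and 5.678 against 0.1375 and 0.0917 FPKM. By immunostaining of cultures kept in serum, the paper counted nearly all cells of both species as astrocytes. Microglia were a smaller share in the ferret, and a few neurons were counted in the ferret only. The libraries here are bulk, so fewer cells of a type and less RNA per cell cannot be told apart in them. The part of the other cell types in the results that follow was not tested.

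Nqo1, Gsr and Mgst3 were called higher in ferret astrocytes, and 12 genes were called lower, among them Sod3, Gpx8, Prdx6, Gstz1 and Mgst1. The 3 higher genes were 8.82% of the 34, beside 13.1% of all tested genes, and the 12 lower genes were 35.3%, beside 30.1%. The remaining 19 did not pass the call. The median difference of the 34 genes was -0.26, beside -0.35 for all tested genes, with 17 genes above that median and 17 below it. An adjusted p under 0.05 alone was reached by 32 of the 34, but also by 88.6% of all tested genes, and the libraries of the species did not overlap for 33 of the 34, the exception being Tkt, and for 94.1% of all tested genes. Such p-values compare these 4 libraries, and an exact permutation test of 2 against 2 libraries cannot go below a two-sided p of 0.333.

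The counts of higher genes depended on the scaling. Under each of the 3 other scalings, Gclc, Srxn1, Prdx3 and Prdx4 were also called higher, which made 7 of 34 or 20.6%, beside 21.5%, 19.1% and 20.3% of all tested genes with sums of 1000000, mean sums and quantile normalization. The lower calls were 12, 11 and 11 genes, or 35.3%, 32.4% and 32.4%, beside 24.9%, 21.7% and 20.5% of all tested genes. Of all genes called, 30.3% were higher in the ferret on the deposited values and 46.4%, 46.9% and 49.8% under the other scalings. The median difference of the 34 genes was then 0.13, 0.13 and 0.11. Nqo1, Gsr and Mgst3 were called higher under each scaling, and 11 of the 12 lower genes kept their call, the exception being Prdx5.

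**Figure D1:**
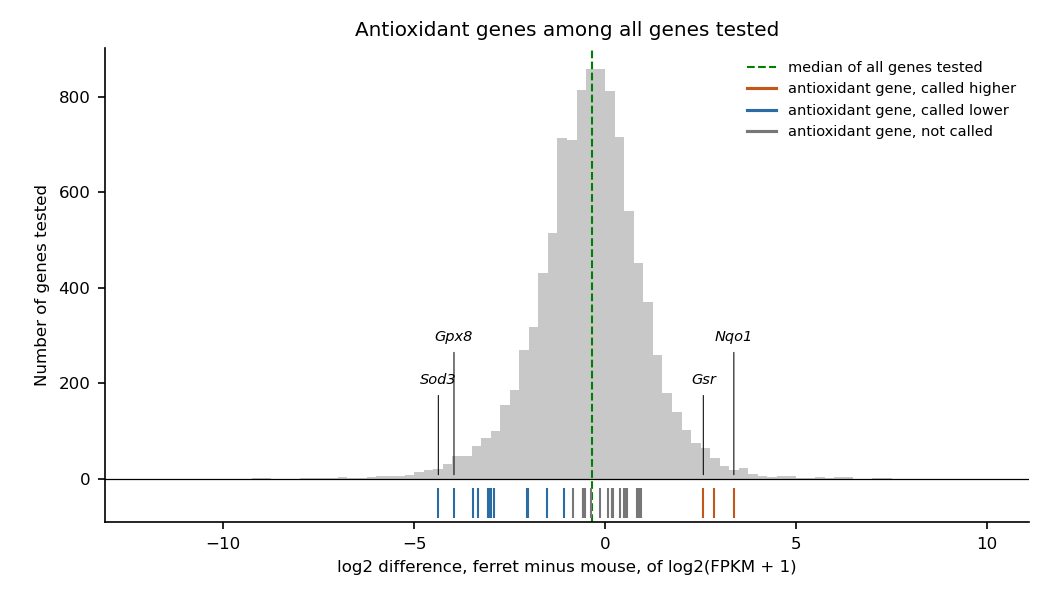
The grey histogram counts the 10204 tested genes by log2 difference, ferret minus mouse, and each tick under it is 1 of the 34 antioxidant genes, coloured by its call. The dashed line is the median of all tested genes at -0.35, and the ticks reach from -4.37 for Sod3 to 3.37 for Nqo1.

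Of the regulators, Keap1 was measured in both species. Keap1, the adaptor that sends NRF2 for degradation and senses oxidants through its own cysteines, was at 18.78 and 19.44 FPKM in the ferret and at 16.99 and 16.64 in the mouse. The difference of 0.17 did not pass the call (adjusted p = 0.0231, limma), although the libraries did not overlap. Nfe2l2 itself was at 106.7 and 110.3 FPKM in the mouse libraries, and its ratio to Keap1 in the ferret was not analysed here.

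Glutathione synthesis and reduction held 1 gene that was called higher, Gsr, and 3 that were not called. Gsr encodes glutathione reductase, which returns oxidized glutathione to its reduced form with NADPH. It was at 134 and 144.1 FPKM in the ferret and at 21.33 and 23.78 in the mouse. Both ferret values lay far above both mouse values, by 6.16-fold between the means, for a log2 difference of 2.57 (SE 0.07, adjusted p = 5.01e-10). In the mouse genome (GRCm38) the gene spans chr8:33652523-33698163 on the plus strand, with 15 exonic regions.

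Gclc and Gclm encode the catalytic and the modifier subunit of glutamate-cysteine ligase, the enzyme of the rate-limiting step of glutathione synthesis, and stood in opposite order in the species. Gclc was at 111.1 and 125.6 FPKM in the ferret and at 60.94 and 61.78 in the mouse, for a log2 difference of 0.93 (adjusted p = 5.53e-07). It missed the limit of 1 on the deposited values, was called at 1.02 without ferret replicate 1, and lay between 1.29 and 1.33 under the other scalings. Gclm was at 46.53 and 55.01 FPKM in the ferret and at 76.51 and 75.55 in the mouse, for a difference of -0.58. The ratio of Gclc to Gclm within a library, in which the scaling between species cancels, was 2.39 and 2.28 in the ferret. In the mouse it was 0.796 and 0.818. Differences between the gene models of the species do not cancel in this ratio. Mouse Gclm also overlaps the expressed genes Gm17494 and Gm6061, so some of its reads may be shared. Gss, glutathione synthetase, which adds the final glycine, was at 44.12 and 43.07 FPKM in the ferret and at 28.45 and 29.36 in the mouse, a difference of 0.58 that was not called.

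**Figure D2:**
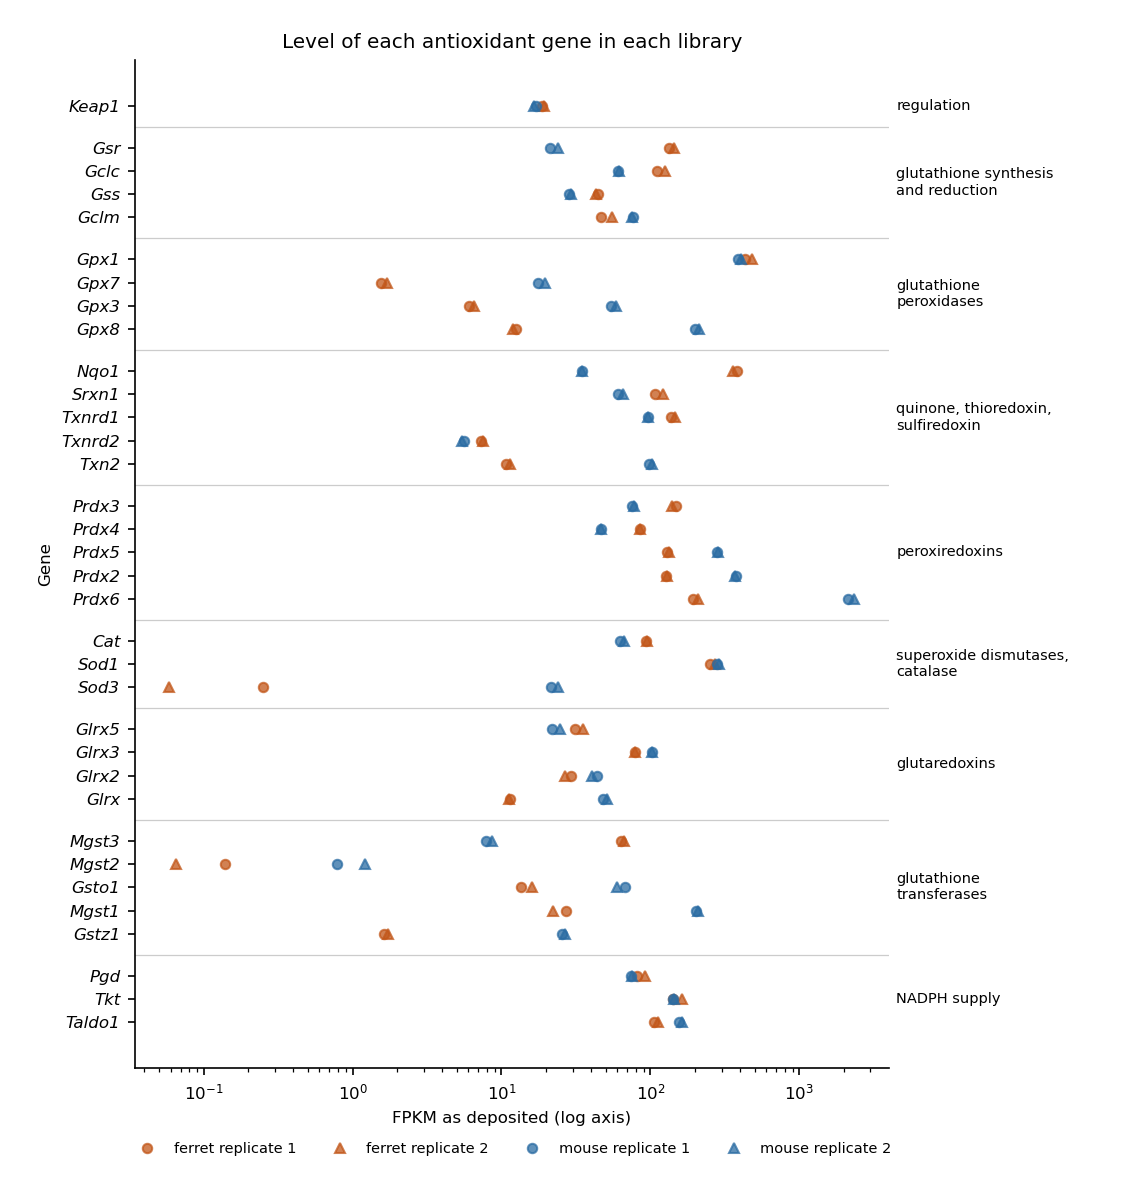
Each row is 1 of the 34 genes, grouped by role, and each symbol is 1 library on a logarithmic axis of deposited FPKM, with ferret libraries in orange, mouse libraries in blue, circles for replicate 1 and triangles for replicate 2. Duplicates lie close together except for Sod3 in the ferret and Mgst2 in both species, which are near or below 1 FPKM, and Prdx6 in the mouse is the highest value, at 2126 and 2344 FPKM.

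Among the glutathione peroxidases, Gpx3, Gpx7 and Gpx8 were called lower in the ferret and Gpx1 was not called. Gpx1, the selenium-containing peroxidase of the cytosol and mitochondria, was at 430.1 and 481.8 FPKM in the ferret and at 389.3 and 408.4 in the mouse, a difference of 0.19 (adjusted p = 0.0284). Gpx1 was the highest of the 34 genes in the ferret and the second in the mouse. Gpx8, a cysteine-containing peroxidase of the endoplasmic reticulum membrane, was at 12.46 and 12.04 FPKM in the ferret and at 199.9 and 211.3 in the mouse. That is 16.8-fold between the means and -3.96 on the log2 scale (SE 0.0596, adjusted p = 1.94e-11), with no overlap of libraries. The mouse gene lies at chr13:113042753-113046410 on the minus strand, with 3 exonic regions.

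Gpx7, the related cysteine-containing peroxidase of the endoplasmic reticulum lumen, was at 1.551 and 1.698 FPKM in the ferret against 17.66 and 19.48 in the mouse, a difference of -2.90 (adjusted p = 5.11e-10). Gpx3, a secreted selenoprotein, was at 6.07 and 6.529 FPKM against 54.58 and 58.45, a difference of -2.98 (adjusted p = 1.67e-10). Thus both cysteine forms were called lower, and of the 2 selenocysteine forms of the peroxidases measured in both species 1 was called lower. Of the FPKM of these 4 genes together, Gpx1 gave 95.5% and 96% in the ferret but 58.9% and 58.5% in the mouse. Gpx8 made up 2.77% and 2.4% in the ferret and 30.2% and 30.3% in the mouse. Gpx4, the selenoprotein that reduces lipid peroxides in membranes, was at 526.2 and 557.2 FPKM in the mouse, where the pseudogene Gpx4-ps2 was listed at 117.1 and 120 FPKM, so reads may be split between them.

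Nqo1 showed the largest positive difference of the 34 genes. It encodes a quinone reductase that uses NADH or NADPH, and is a commonly used readout of NRF2 activity. Its level was 384.1 and 358.6 FPKM in the ferret and 34.98 and 34.94 in the mouse. The means differed 10.6-fold, or by 3.37 on the log2 scale (SE 0.0594, adjusted p = 4.19e-11). By level, Nqo1 was the second of the 34 genes in the ferret and stood at rank 24 in the mouse. Mouse Nqo1 spans chr8:107388225-107403206 on the minus strand with 6 exonic regions.

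Srxn1, sulfiredoxin, which reactivates overoxidized peroxiredoxins, was at 106.5 and 121.1 FPKM in the ferret and at 60.93 and 65.04 in the mouse. Its difference of 0.84 was below the limit of 1 on the deposited values and lay between 1.20 and 1.24 under the other scalings, where it was called. Txnrd1, the cytosolic thioredoxin reductase, was at 136.9 and 145.3 FPKM against 96.45 and 96.61, a difference of 0.54 that was not called. Txnrd2, its mitochondrial counterpart, was at 7.333 and 7.547 FPKM against 5.568 and 5.418, a difference of 0.38 that was not called. For both reductases the ferret libraries lay above the mouse libraries. Txn2, the mitochondrial thioredoxin that Txnrd2 reduces, lay on the other side, at 10.68 and 11.49 FPKM in the ferret and at 97.22 and 102.8 in the mouse, a 9.03-fold difference between the means (log2 -3.06, adjusted p = 1.05e-10). Cytosolic thioredoxin, named Txn1 in the mouse, was at 167.2 and 173.3 FPKM in the mouse and was not compared.

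**Figure D3:**
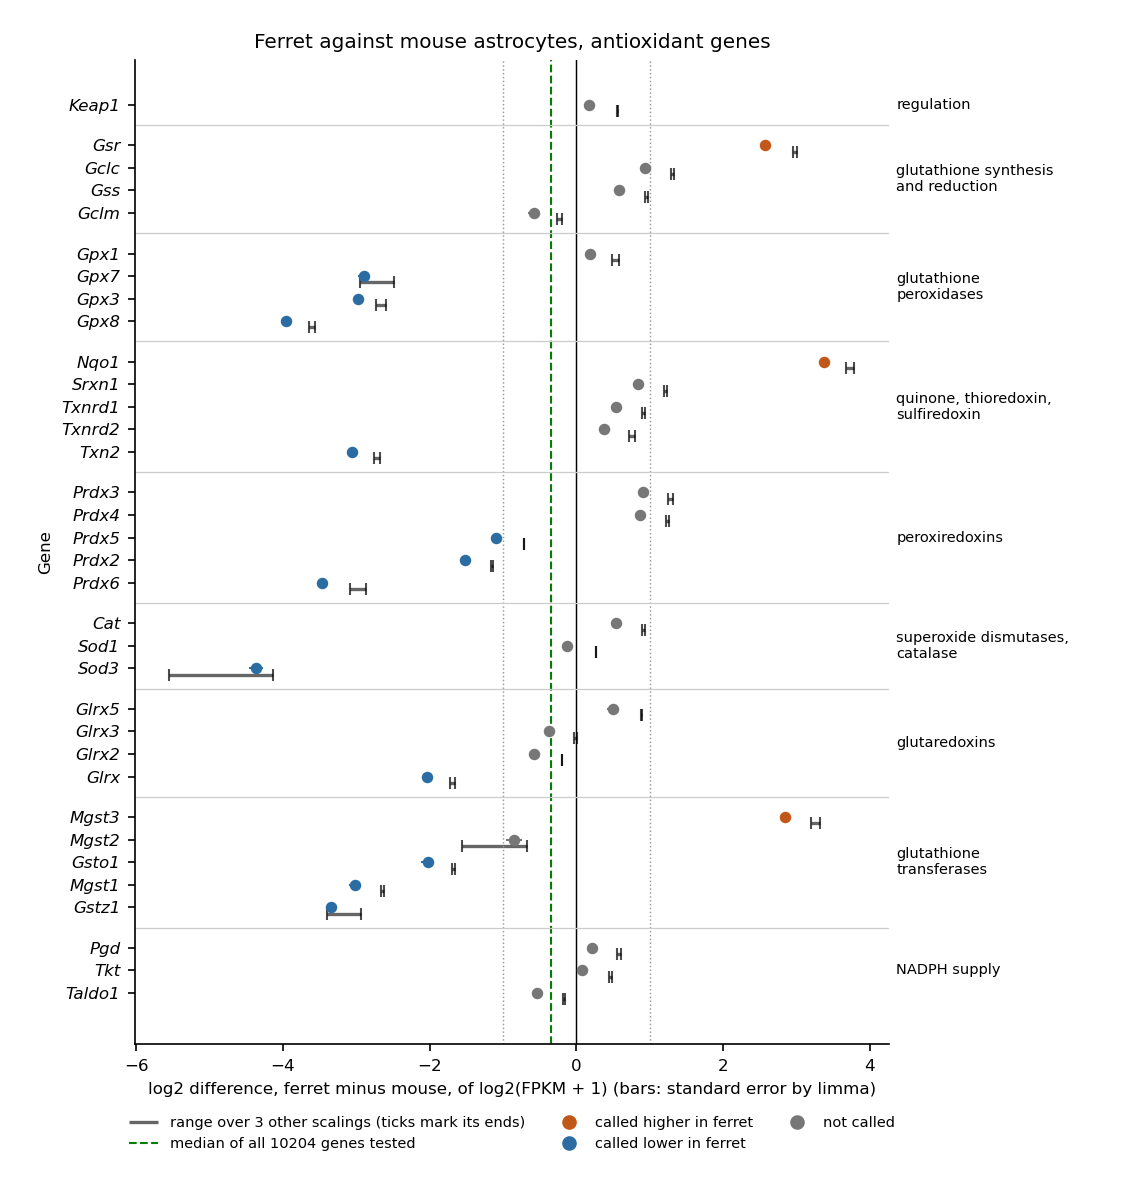
Circles give the log2 difference, ferret minus mouse, of each of the 34 genes on deposited FPKM, with its standard error by limma as a horizontal bar, and the grey ranges give the values under the 3 other scalings. Orange marks the 3 genes called higher (Nqo1, Mgst3 and Gsr), blue the 12 called lower and grey the 19 not called, and Sod3 has the widest range, from -5.55 to -4.14.

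Peroxiredoxins, thiol peroxidases that are among the most abundant peroxide-reducing proteins, were split by member. Prdx6, which takes its electrons from glutathione and also has phospholipase activity, was at 193.8 and 208.5 FPKM in the ferret and at 2126 and 2344 in the mouse. It was the highest of the 34 genes in the mouse and the fourth in the ferret, and the means differed 11.1-fold (log2 -3.47, SE 0.0722, adjusted p = 1.03e-10). Mouse Prdx6 lies at chr1:161240112-161251219 on the minus strand with 5 exonic regions, and its close copy Prdx6b was listed at 0 and 0.05409 FPKM. Prdx2, a cytosolic peroxiredoxin, was at 127.5 and 129.7 FPKM against 373.3 and 370.6, a 2.89-fold difference between the means (log2 -1.52, adjusted p = 3.45e-09). Some mouse reads of Prdx2 may be shared with its pseudogene Prdx2-ps1, at 19.03 and 18.29 FPKM, and with the overlapping gene Rnaseh2a. Prdx5, found in several compartments, was at 130.1 and 133.9 FPKM against 281.2 and 284.8, a difference of -1.09 that was called on the deposited values and was -0.72 to -0.71, without a call, under the other scalings.

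The other peroxiredoxins measured in both species lay on the opposite side. Prdx3, the mitochondrial peroxiredoxin, was at 147.4 and 140.2 FPKM in the ferret and at 75.15 and 77.07 in the mouse, a difference of 0.91 (adjusted p = 1.86e-07). Prdx4, the peroxiredoxin of the endoplasmic reticulum, was at 84.97 and 85.69 FPKM against 46.43 and 46.82, a difference of 0.86 (adjusted p = 2.03e-07). Both stayed under the limit of 1 on the deposited values, and lay between 1.25 and 1.31 and between 1.22 and 1.26 under the other scalings, where both were called. In the summed FPKM of Prdx2 to Prdx6, 683.8 and 698 in the ferret and 2902 and 3123 in the mouse, Prdx6 took 28.3% and 29.9% in the ferret and 73.3% and 75% in the mouse. Prdx3 took 21.6% and 20.1% in the ferret and 2.59% and 2.47% in the mouse. Prdx1, a further cytosolic member with 686.4 and 705.5 FPKM in the mouse, is not in these sums.

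Prdx6 also weighed on the sum of the whole set. The 34 genes made up 1.35% and 1.36% of the shared symbols' FPKM in the ferret and 1.77% and 1.82% in the mouse. Without Prdx6 the shares were 1.26% and 1.27% in the ferret and 1.06% and 1.06% in the mouse, so the order of the species turned on this 1 gene.

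Superoxide dismutases turn superoxide into hydrogen peroxide, and catalase breaks hydrogen peroxide down. Sod3, the extracellular superoxide dismutase, was at 0.2509 and 0.05882 FPKM in the ferret and at 21.55 and 24.09 in the mouse. It was the lowest difference of the 34 genes (-4.37, SE 0.0985, adjusted p = 1.61e-10), and the ferret values are so low that its size depends on the scale, with -5.55 after rescaling to 1000000 and -6.60 with a pseudocount of 0.1. Mouse Sod3 spans chr5:52363791-52371418 on the plus strand with 2 exonic regions. Sod1, the cytosolic copper-zinc enzyme, was at 252.8 and 269.9 FPKM against 281.6 and 290.2, a difference of -0.13 (adjusted p = 0.0697) that turned to 0.26 under each of the other scalings. Ccs, the copper chaperone that loads Sod1, was at 4.852 and 5.58 FPKM in the ferret and at 38.57 and 42.77 in the mouse, a difference of -2.75 that was called. Cat, catalase of the peroxisome, was at 93.34 and 94.85 FPKM against 62.49 and 66.17, a difference of 0.54 that was not called. Sod2, the mitochondrial manganese enzyme, was at 71.0 and 78.5 FPKM in the mouse.

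Of the glutaredoxins, Glrx was called lower and Glrx2, Glrx3 and Glrx5 were not called. Glrx, the cytosolic thioltransferase that removes glutathione from proteins, was at 11.37 and 11.21 FPKM in the ferret against 48.12 and 50.79 in the mouse, a 4.38-fold difference between the means (log2 -2.04, adjusted p = 9.34e-10). Glrx5, a mitochondrial protein of iron-sulphur cluster assembly, was at 31.05 and 35.38 FPKM against 21.73 and 24.52, a difference of 0.50. Glrx2, a further mitochondrial member, was at 29.43 and 26.66 FPKM against 44.04 and 40.83, a difference of -0.58. Glrx3, which takes part in iron handling in the cytosol, was at 78.53 and 78.74 FPKM against 102.7 and 102.8, and its difference of -0.38 was 0.01 under both rescalings and -0.03 under quantile normalization. Glrx3 was the largest member of the family in all 4 libraries, at 52.2% and 51.8% of its summed FPKM in the ferret and 47.4% and 47% in the mouse, while Glrx took 7.56% and 7.37% in the ferret and 22.2% and 23.2% in the mouse.

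The microsomal glutathione transferases exchanged places. Mgst3, a membrane enzyme with glutathione transferase and peroxidase activity, was at 63.58 and 66.74 FPKM in the ferret and at 7.911 and 8.618 in the mouse. That is 7.88-fold between the means and 2.84 on the log2 scale (SE 0.0662, adjusted p = 1.94e-10). Mgst1, a related enzyme of the endoplasmic reticulum and outer mitochondrial membrane, was at 27.14 and 22.2 FPKM in the ferret and at 202.5 and 209 in the mouse, 8.34-fold in the other direction (log2 -3.02, SE 0.0859, adjusted p = 6.52e-10). Within the family, Mgst3 took 70% and 75% of the summed FPKM in the ferret and 3.75% and 3.94% in the mouse, and Mgst1 took 29.9% and 24.9% in the ferret and 95.9% and 95.5% in the mouse. The mouse genes lie at chr1:167371966-167393841 on the minus strand for Mgst3, with 6 exonic regions, and at chr6:138140316-138156755 on the plus strand for Mgst1, with 7. Mgst2 was near the limit of 1 FPKM in the mouse, at 0.7839 and 1.218, and below it in the ferret, at 0.1387 and 0.06505. Its difference of -0.85 was not called. It lay between -1.56 and -0.67 under the other scalings, with a call at -1.56 after rescaling to 1000000, and was called at -1.01 without mouse replicate 1.

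Gstz1 and Gsto1, the soluble transferases of the given set that were measured in the 2 species, were both called lower in the ferret. Further transferases were counted in a related list below, and not all of those were called lower. Gstz1, which also works in the breakdown of tyrosine, was at 1.623 and 1.73 FPKM in the ferret and at 25.63 and 26.68 in the mouse, a 15.6-fold difference between the means (log2 -3.34, adjusted p = 1.14e-10). Mouse Gstz1 overlaps the expressed genes Pomt2 and Gm6566. Gsto1, which reduces dehydroascorbate with glutathione, was at 13.62 and 16.02 FPKM against 67.28 and 59.8, a 4.29-fold difference (log2 -2.03, adjusted p = 9.58e-09), and overlaps Cfap43 in the mouse. Gstk1 was at 6.73 and 6.58 FPKM in the mouse.

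**Figure D4:**
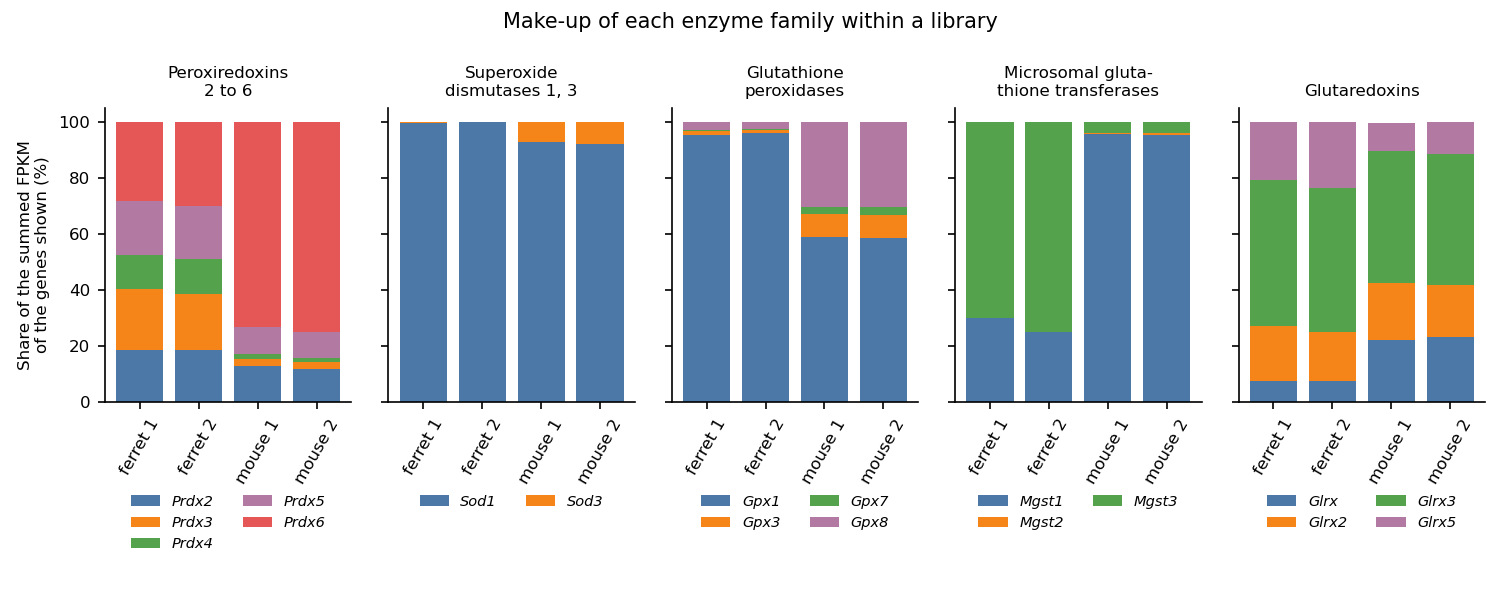
Stacked bars give the share (%) of each gene in the summed FPKM of its family in each of the 4 libraries, over the genes measured in both species. Prdx6 fills 73.3% and 75% of the mouse peroxiredoxin bars and 28.3% and 29.9% of the ferret bars, Gpx1 fills 95.5% and 96% of the ferret peroxidase bars, and Mgst3 and Mgst1 exchange places between the species.

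The pentose phosphate enzymes, which supply NADPH to both thiol systems, did not pass the call. Pgd, 6-phosphogluconate dehydrogenase, was at 81.81 and 91.72 FPKM in the ferret and at 73.87 and 75.16 in the mouse, a difference of 0.21. Taldo1, transaldolase, was at 106 and 112.8 FPKM against 156.3 and 162.7, a difference of -0.54. Tkt, transketolase, was at 140.8 and 162.9 FPKM against 141.1 and 144.4, and its libraries overlapped, with a difference of 0.08 (adjusted p = 0.296). None of the 3 genes was called under any of the other scalings, but their differences moved. Tkt then lay between 0.45 and 0.48, Pgd between 0.55 and 0.61, and Taldo1 between -0.18 and -0.15.

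By level per length, the order of the 34 genes was Gpx1, Nqo1, Sod1, Prdx6 and Tkt from the top in the ferret and Prdx6, Gpx1, Prdx2, Sod1 and Prdx5 in the mouse. Neighbours in these orders often could not be separated. The libraries of 10 neighbouring pairs overlapped in the ferret, such as those of Prdx3, Txnrd1 and Gsr, and those of 9 pairs in the mouse, such as Sod1 and Prdx5. Besides Nqo1, Gsr was at rank 8 in the ferret and rank 29 in the mouse, and Mgst3 at rank 18 and rank 32. At the bottom of the ferret order were Gstz1, Gpx7, Sod3 and Mgst2, and at the bottom of the mouse order were Keap1, Mgst3, Txnrd2 and Mgst2.

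Genes that work beside these were counted in lists that excluded the 39 symbols. The counts of each list are read beside the 13.1% of all tested genes called higher and the 30.1% called lower, and no list was tested as a set. Of 19 regulators of NRF2 and stress targets tested, 5 were called higher and 6 lower, with a median difference of -0.16 beside -0.35 for all tested genes. Slc7a11, the cystine carrier that brings in the cysteine for glutathione, was at 95.35 and 103.6 FPKM in the ferret and at 15.15 and 13.67 in the mouse, a difference of 2.70 (adjusted p = 3.99e-10). Slc3a2, the heavy chain with which it forms the carrier, differed by -1.86, in the opposite direction. Hmox1, heme oxygenase 1, was at 411.3 and 488 FPKM against 189.3 and 200.1, a difference of 1.20 (adjusted p = 3.41e-07). Blvrb, a biliverdin reductase that follows it in heme breakdown, differed by 1.89, and Osgin1, an oxidative stress-induced growth inhibitor, by 1.44. On the other side, Abcc1, an exporter of glutathione conjugates, differed by -1.89, Maff, a small MAF partner of NRF2, by -1.69, and Txnip, an inhibitor of thioredoxin, by -1.53, at 36.66 and 33.7 FPKM against 101.1 and 105.3. Under the other scalings 6 of the 19 were called higher, and 4, 3 and 4 lower with sums of 1000000, mean sums and quantile normalization.

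Glutathione supply and turnover had 1 gene called higher, Slc7a11, and 9 called lower of 14 tested, with a median of -1.55 and the same counts under the other scalings, where 24.9%, 21.7% and 20.5% of all tested genes were called lower. Esd, which finishes the glutathione-dependent removal of formaldehyde, differed by -3.38 at 34.07 and 28.13 FPKM in the ferret against 328.4 and 335.5 in the mouse. Glo1, the glyoxalase that uses glutathione to remove methylglyoxal, differed by -2.38, and Anpep, an aminopeptidase that can split the dipeptide left after glutathione is cut, by -2.15. Ggt7, of the gamma-glutamyltransferase family, differed by -1.87.

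Of 7 other glutathione peroxidases and transferases tested, 5 were called lower and 2 were not called, with a median of -1.79. The list joins enzymes of detoxification with members of the same families that take part in making lipid mediators, and 4 of the 5 lower genes are of the latter kind. Alox5ap, which hands arachidonic acid to 5-lipoxygenase, differed by -4.16, at 0.514 and 0.4018 FPKM against 23.8 and 26.36. Hpgds and Ltc4s, the synthases of prostaglandin D2 and leukotriene C4, were listed at 0 in both ferret libraries, and at 9.515 and 9.035 and at 2.544 and 2.376 FPKM in the mouse. Ptges, a prostaglandin E synthase, differed by -2.78, and Gstm3, a cytosolic transferase, by -1.54. The summed microglial markers, 73.04 and 73.53 FPKM in the ferret against 944.4 and 918 in the mouse, moved in the same direction, and their part in these values was not tested.

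In the list of thioredoxin-related and thiol repair genes, 8 of 18 tested were called lower and 10 were not called on the deposited values, with a median of -0.88, and 5 were lower under each of the other scalings. The lowest were Txndc17 at -2.55, a small thioredoxin-like protein, Msrb3 at -2.30, a methionine sulfoxide reductase, and Txndc5 at -2.01, a disulphide isomerase of the endoplasmic reticulum. Of 13 genes of selenoproteins and selenium handling, 2 were called higher and 5 lower, with a median of -0.55 and the same counts under the other scalings. Selenow, a small selenoprotein of the cytosol, was at 23.9 and 27.01 FPKM in the ferret and at 365.5 and 382.8 in the mouse, a difference of -3.83, while Selenos and Selenom, both of the endoplasmic reticulum, differed by -2.31 and -2.06. Lrp8, a receptor through which brain cells take up selenoprotein P, was higher by 1.62.

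Of 11 other genes of NADPH supply, 2 were called higher and 2 lower, with a median of 0.18. Nadk2, the mitochondrial NAD kinase, was at 129.1 and 114.3 FPKM in the ferret and at 22.59 and 24.07 in the mouse, a difference of 2.33, and Mthfd1, a folate enzyme that forms NADPH, differed by 1.07. Aldh1l1, a folate enzyme that also serves as an astrocyte marker, differed by -2.95, at 10.13 and 9.599 FPKM against 81.16 and 84.34. Me3, a mitochondrial malic enzyme, differed by -1.41 and lost its call under quantile normalization. Me1, the cytosolic malic enzyme, was at 118.2 and 116.5 FPKM against 65.21 and 68.61, a difference of 0.80 that was called, at 1.15 to 1.20, under the other scalings. The list then had 3 genes called higher under each scaling, and 2, 2 and 1 called lower with sums of 1000000, mean sums and quantile normalization.

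**Figure D5:**
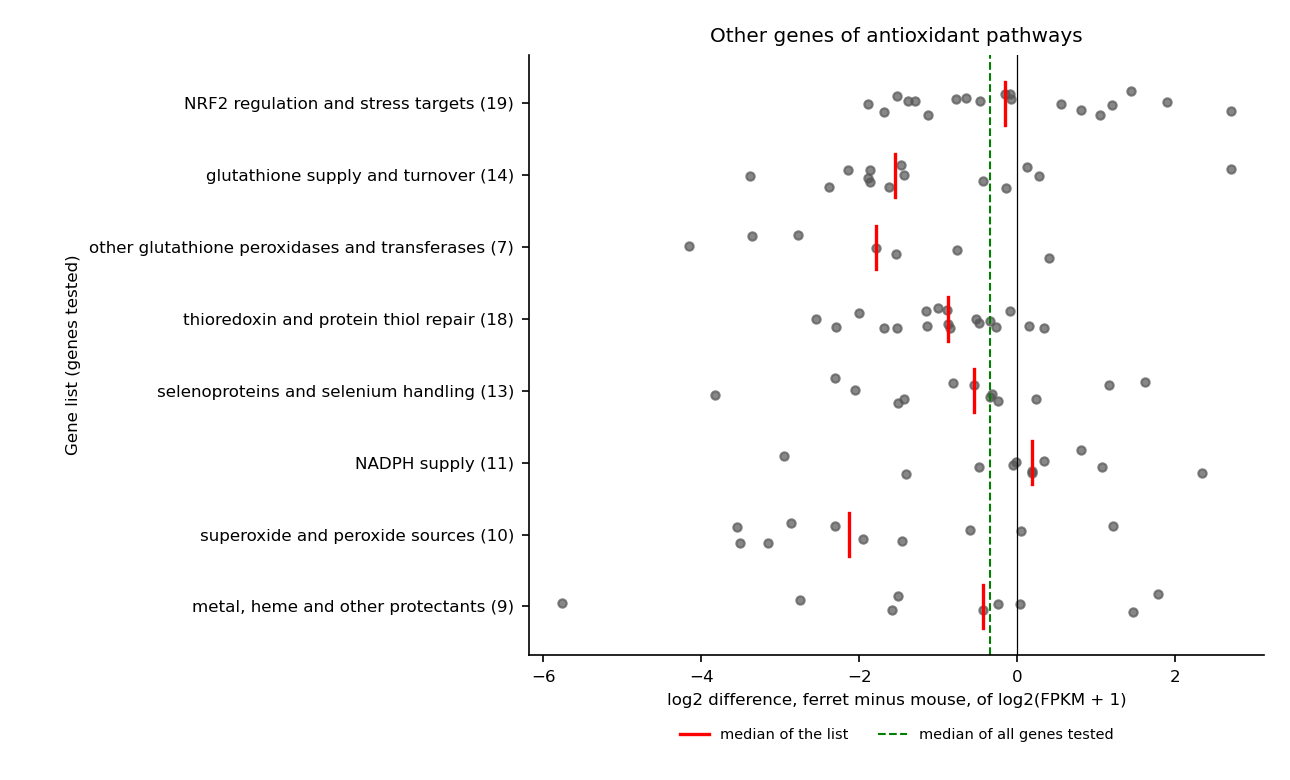
Each point is the log2 difference, ferret minus mouse, of 1 tested gene of the 8 lists of related genes, with the number tested in parentheses, the median of each list in red and the median of all tested genes at -0.35 as a dashed line. The medians reach from -2.13 for sources of superoxide and peroxide to 0.18 for NADPH supply, and genes of the same list lie on both sides of 0.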

How the data were processed

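RNA of cultured ferret and mouse astrocytes was sequenced as polyA-selected, stranded libraries. According to the labels and methods, the authors processed the reads with bcl2fastq 2.17 and STAR 2.7.0f, aligned each species to its own genome with an Ensembl annotation (GRCm38 for the mouse), and deposited FPKM per gene and library from Cufflinks 2.2.1. Exon lengths therefore come from 2 annotations of unequal completeness, 16853 ferret and 55257 mouse values, and whether the counting used strand was not given in the sources used here. No read counts were used, so intervals and limits at 0 were not computed. Steps between low values gave a depth ratio of replicate 1 to replicate 2 of 1.17 in the ferret and 0.834 in the mouse.

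Symbols were matched without regard to case, keeping the value with the highest mean where a symbol had several. Genes whose mean FPKM reached 1 in a species were fitted as log2(FPKM + 1) by limma 3.58.1 under R 4.3.3, with its moderated variance following expression, 2 libraries per species and no covariate. The fit was tested on simulated data. Joins and plots used Python 3.11.15 with pandas 2.3.3, numpy 2.4.6 and matplotlib 3.10.9. Mouse loci and sequences come from GENCODE on GRCm38, and ferret sequences and promoters were not used here. Family shares are percent of summed FPKM within a library.

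The members and the lists of related genes and markers were chosen with earlier results of these data known. Every member is named. Of each related list, the called genes and those with the largest differences are named, at most 6 a list, with partners of members. Alternatives were a pseudocount of 0.1, no filter, a filter of 5 FPKM, summed values of a symbol, 3 scalings, the replicate number as a block and each library left out in turn. Some genes of these lists are counted but not reported by name here. A planned motif search in promoters was not run.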

Additional observations from a re-analysis of the deposited data

How the results depend on the processing

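The scaling between the species moved the counts most. On the deposited values 3 antioxidant genes were called higher, and 7, 7 and 7 under rescaling to 1000000, to the mean sum and by quantiles. Over all tested genes the higher calls were 1336 as deposited and 2197, 1954 and 2076 under these scalings, and the lower calls 3069 as deposited and 2536, 2215 and 2090. The median of the antioxidant genes, -0.26, was 0.13, 0.13 and 0.11 under these scalings and -0.13 with a filter of 5 FPKM, which dropped Mgst2. Sod1 reversed to 0.26, 0.26 and 0.26, and Glrx3 to 0.01 and 0.01 under both rescalings. Tkt, at 0.08 as deposited, lay between -0.02 and 0.19 with single libraries left out. With each library left out in turn, 3 to 4 antioxidant genes were called higher and 12 to 13 lower, their median was -0.28 to -0.23, and over all tested genes 1316 to 1372 were higher and 3049 to 3095 lower.

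The labels give both species replicates 1 and 2, but the libraries share only a number, as they come from different animals, and same-numbered libraries did not deviate together (r = 0.00995 over 10204 genes, which are not independent). With the replicate number as a block, 3 antioxidant genes were called higher and 12 lower, and 1342 and 3072 of all tested genes. Over all values, shares and counts under the alternatives, 6 reversed, and the cause of these changes was not tested. The deposited FPKM give no depth with which to judge values below 1, such as those of Sod3 and Mgst2 in the ferret.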

Other observations

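Genes that produce superoxide or peroxide were lower in ferret than in mouse astrocytes for 7 of 10 tested, and 1 was higher, with a median difference of -2.13 and the same counts under the other scalings. Of all tested genes, 30.1% were called lower and 13.1% higher. The subunits of the phagocyte NADPH oxidase led the list. Cybb, its catalytic subunit, was at 0.1021 and 0.09981 FPKM in the ferret and at 11.85 and 11.95 in the mouse, a difference of -3.55. Its cytosolic partners Ncf4 and Ncf1 differed by -3.51 and -3.16. These subunits are best known from phagocytes, and the microglial markers summed to 73.04 and 73.53 FPKM in the ferret against 944.4 and 918 in the mouse. Their part in these differences was not tested. Xdh, xanthine dehydrogenase, differed by -2.31.

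In the list of metal, heme and other protective genes, 2 of 9 tested were called higher and 4 lower, with the same counts under the other scalings. Ucp2, an uncoupling protein of the inner mitochondrial membrane, was at 2.091 and 1.98 FPKM in the ferret and at 163.7 and 163.7 in the mouse, a difference of -5.76. Blvra, a biliverdin reductase, was at 67.36 and 79.23 FPKM against 21.08 and 20.11, a difference of 1.78. Hmox2, the other heme oxygenase beside Hmox1, differed by 0.03. Bcl2, an inhibitor of cell death, differed by -1.59, and Oxr1, an oxidation resistance protein, by -1.51. The metallothioneins Mt1, Mt2 and Mt3 were at 1844 and 2068, 1398 and 1566, and 1796 and 1975 FPKM in the mouse libraries and were not compared.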
